A study of Arabidopsis thaliana with 6 samples.

Results

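The 5 genes described here belong to protein classes with members that cut, rejoin or loosen the plant cell wall, or that cut proteins within it. They are AT5G55180, a glycosyl hydrolase gene; GH9B13 (AT4G02290), a glycosyl hydrolase gene of family GH9; AT4G20430, a subtilase gene; EXGT-A3 (AT2G01850, also called XTH27), a xyloglucan enzyme gene; and EXPA4 (AT2G39700), an expansin gene. Each was read by 1 probe set that was annotated to that gene alone, and the 22810 probe sets of the array named 13350 genes in this way. The genes were chosen with their differences between the genotypes in view. Their own differences below are therefore a description, given without a test.

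The study measured transcripts in whole Arabidopsis thaliana seedlings aged 9 days, in 3 wild-type samples and 3 samples with mutations in both MYB3R1 and MYB3R4 (myb3r1 myb3r4), all of the cultivar Col-0. All seedlings were untreated and grew at 22 degrees Celsius in continuous light on half-strength Murashige and Skoog agar with 2% sucrose. The labels name the mutated genes but no alleles. The arrays came in 3 experimental sets, each with 1 array per genotype. No label states that the sets were independent cultures, so any p measures the spread between these arrays, which may be technical. Neither of the 2 mutated genes had a named probe set, so the mutation itself could not be checked on the arrays. The promoter and protein sequences of the 5 genes were not used here.

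A growing plant cell is held by a wall of cellulose microfibrils, coated with xyloglucan and embedded in pectin. Expansins loosen the contacts between these polymers, and xyloglucan endotransglucosylase/hydrolases (XTHs) cut xyloglucan and join the cut end to another chain. Endoglucanases of family GH9 cut beta-1,4-linked glucan. Subtilases are serine proteases, many of them secreted, and some act on other wall proteins such as pectin methylesterases. MYB3R1 and MYB3R4 are transcription factors of the MYB family, best known as regulators of genes used late in the cell cycle, among them those of cytokinesis, when a new wall is laid between daughter cells.

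The genes did not share a direction. AT5G55180, GH9B13 and AT4G20430 were 3.11-fold, 3.07-fold and 2.51-fold lower in the double mutant than in wild type. EXGT-A3 was 1.46-fold higher, and EXPA4 was near its wild-type level, at 0.954-fold. Levels below are log2 values of the signal over the median signal of its array. A difference is mutant minus wild type on the log2 scale, from a paired fit that takes the set as a block, and its SE is that of this fit. All 5 probe sets were among the brightest 60% of probe sets, the 13648 that were tested. Over those the median difference was 0.058, and the middle 90% of differences lay between -0.39 and 0.57.

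**Figure D1:**
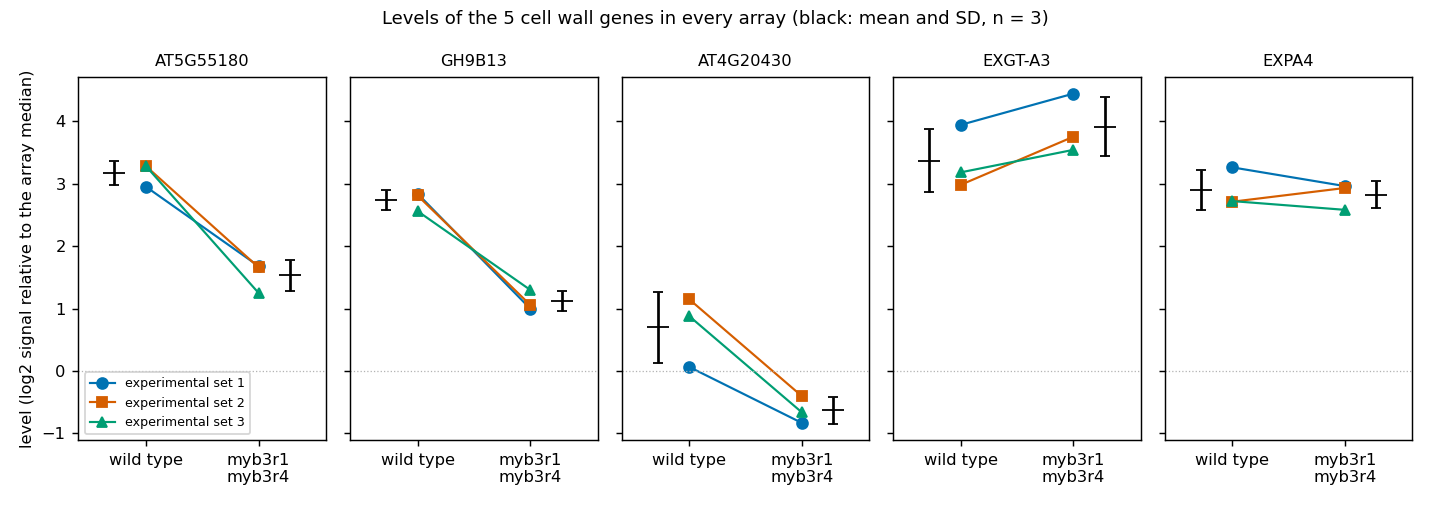
Level of each gene, as the log2 signal relative to the array median, in the 3 wild-type and the 3 myb3r1 myb3r4 arrays. Lines join the arrays of an experimental set, and black marks give the mean and SD of a genotype (n = 3). The mutant arrays lie below the wild-type arrays for AT5G55180, GH9B13 and AT4G20430, and the genotypes overlap for EXGT-A3 and EXPA4.

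AT5G55180 encodes a glycosyl hydrolase, an enzyme class that cuts sugar chains. Its levels in wild type were 2.95, 3.28 and 3.28 in sets 1 to 3, and in the mutant 1.68, 1.66 and 1.25. All 3 mutant arrays lay below all 3 wild-type arrays, with a gap of 1.27 between the lowest wild-type and the highest mutant array. Wild type had a mean level of 3.17 ± 0.19 (SD, n = 3) and the mutant of 1.53 ± 0.24 (SD, n = 3), a difference of -1.64 (SE 0.17). Within sets the difference was -1.27, -1.62 and -2.03, that is 2.41-fold, 3.06-fold and 4.08-fold lower. It was the 7th lowest difference of all tested probe sets. Even so, at 1.53 the mutant level was above that of a typical probe set.

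GH9B13 encodes an endoglucanase of family GH9. Wild-type levels were 2.84, 2.81 and 2.56 in sets 1 to 3, and mutant levels 1.0, 1.06 and 1.3. The genotypes did not overlap, and the gap between them was 1.26. The mean over the arrays of a genotype was 2.74 ± 0.15 for wild type and 1.12 ± 0.16 for the mutant (SD, n = 3 each), a difference of -1.62 (SE 0.16). The difference ranked 8th lowest, directly after that of AT5G55180. In sets 1 to 3 it was -1.84, -1.75 and -1.26. Set 1 thus had the widest difference of GH9B13 and the narrowest of AT5G55180, and set 3 the reverse.

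AT4G20430 is the subtilase gene. Its probe set stood at the 50.5th percentile of mean level over all probe sets other than controls, where MAS5 signals are noisier on a log scale. From set 1 to set 3 the wild-type arrays had levels of 0.066, 1.15 and 0.88, and the mutant arrays of -0.83, -0.4 and -0.66. The genotypes did not overlap, but the gap was only 0.47, because wild type in set 1 was low. Genotype means were 0.7 ± 0.56 for wild type and -0.63 ± 0.22 for the mutant (SD, n = 3 each), a difference of -1.33 (SE 0.19), the 12th lowest. The differences in sets 1 to 3 were -0.90, -1.55 and -1.54, or 1.86-fold, 2.92-fold and 2.92-fold lower.

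EXGT-A3 encodes an XTH enzyme known for its part in the development of water-conducting cells in leaf veins. Its wild-type levels were 3.94, 2.98 and 3.18 in sets 1 to 3, and its mutant levels 4.44, 3.75 and 3.54. The mutant was above its own wild-type partner in each set, but wild type in set 1 exceeded the mutant in sets 2 and 3, so the genotypes overlapped. Means were 3.36 ± 0.50 (SD, n = 3) and 3.91 ± 0.47 (SD, n = 3), a difference of 0.54 (SE 0.15). Its within-set differences were 0.50, 0.77 and 0.37, and 5.61% of the tested probe sets had a difference as high or higher.

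EXPA4 encodes an alpha-expansin. The wild-type arrays had levels of 3.26, 2.71 and 2.72 and the mutant arrays of 2.96, 2.93 and 2.58. The genotypes overlapped, and the sign of the difference changed between sets, at -0.29, 0.22 and -0.13. Wild type averaged 2.89 ± 0.31 and the mutant 2.83 ± 0.21 (SD, n = 3 each), a difference of -0.068 (SE 0.16), smaller than its error.

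Of the 5 genes, 3 were lower in the mutant in all 3 sets, as were 15.6% of all tested probe sets, and 1 was higher in all 3, as were 26.3%. For 3 genes every mutant array lay below every wild-type array, which held for 4.57% of the tested probe sets. Since the genes were chosen on this contrast, these shares are printed as the background only.

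**Figure D2:**
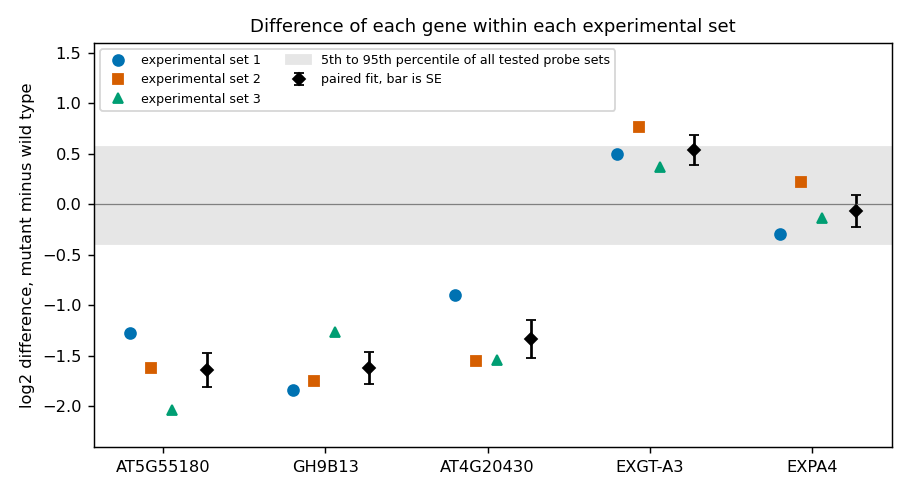
Log2 difference, mutant minus wild type, of each gene in each experimental set, with the value of the paired fit and its SE. The grey band spans the 5th to the 95th percentile of the fitted differences of all 13648 tested probe sets, -0.39 to 0.57. No such band was taken for the differences within single sets. AT5G55180, GH9B13 and AT4G20430 lie below the band in every set.

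Whether a gene varied between the experimental sets, regardless of genotype, is a question that did not enter the choice of the genes. Limma's moderated F-test over the sets, adjusted by Benjamini-Hochberg over all tested probe sets, called 1 of the 5 genes, and 8.61% of all tested probe sets. EXGT-A3 passed (adjusted p = 0.0348): the 2 arrays of set 1 averaged 4.19, those of set 2 averaged 3.37 and those of set 3 averaged 3.36. This call was not made with quantile normalization (adjusted p = 0.0676) or without a filter on dim probe sets (adjusted p = 0.0512), and without set 1 the adjusted p was 0.996. The other adjusted p values were 0.133 for AT4G20430, 0.267 for EXPA4, 0.757 for AT5G55180 and 0.997 for GH9B13. GH9B13 had set means of 1.92, 1.94 and 1.93. These means cancel opposite moves of the genotypes: from set 1 to set 3 wild type went from 2.84 to 2.56 and the mutant from 1.0 to 1.3. AT4G20430 had a mean of -0.38 in set 1 against 0.37 and 0.11 in sets 2 and 3.

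A sign of RNA quality also set the sets apart. The mean 3' minus 5' signal over 6 pairs of control probe sets was 1.07 for wild type and 1.5 for the mutant in set 1, 3.04 and 1.92 in set 2, and 3.22 and 2.44 in set 3. The mutant thus differed from wild type in this signal by 0.44, -1.12 and -0.78. With the control signal as a covariate, the difference was -1.48 for AT5G55180, -1.70 for GH9B13, -1.11 for AT4G20430, 0.50 for EXGT-A3 and -0.20 for EXPA4. The set effect of EXGT-A3 was then not called (adjusted p = 0.350).

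The levels of AT5G55180, GH9B13 and AT4G20430 followed each other over the 6 arrays. Pearson's r was 0.94 between AT5G55180 and GH9B13, 0.92 between AT5G55180 and AT4G20430, and 0.86 between GH9B13 and AT4G20430. EXGT-A3 ran against AT4G20430 (r = -0.82) and EXPA4 had an r of 0.13 with AT5G55180. These values describe 6 arrays that share genotype and set, and most of each high r is the step between the genotypes for which the genes were chosen.

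Among 5377 other tested probe sets with 1 gene and an SD of at least 0.2 over the arrays, the 3 most like each gene were found by Pearson's r over the 6 arrays. AT5G55180 was followed most closely by AT5G16250 (r = 0.987), AT5G63930 (0.976) and AT3G52110 (0.975). AT5G16250 was at 2.2, 2.61 and 2.32 in wild type and at 1.26, 1.27 and 1.1 in the mutant. GH9B13 had AT3G02120 (0.982), AT5G63930 (0.981) and AT1G55880 (0.981) nearest to it. AT5G63930 was thus near both hydrolase genes, at a much smaller difference of -0.54, which was -0.55, -0.53 and -0.56 in sets 1 to 3. AT4G20430 had AT5G58980 (0.981), NCRK, a receptor-like kinase gene (0.979), and AT5G66230 (0.973), all with the smallest difference in set 1.

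EXGT-A3 and EXPA4 had other genes nearest to them. Nearest to EXGT-A3 were AT2G46220 (0.994), AT1G53560 (0.993) and AT5G59960 (0.993), each highest in the mutant array of set 1. EXPA4 was nearest to AT1G02360 (0.993), AT5G17820 (0.991), one of the genes listed as root markers, and AT1G26250 (0.979). AT5G17820 had levels of 2.52, 0.66 and 0.85 in wild type and 1.63, 1.42 and 0.55 in the mutant. Like EXPA4 it was highest in wild type of set 1 and lowest in the mutant of set 3.

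**Figure D3:**
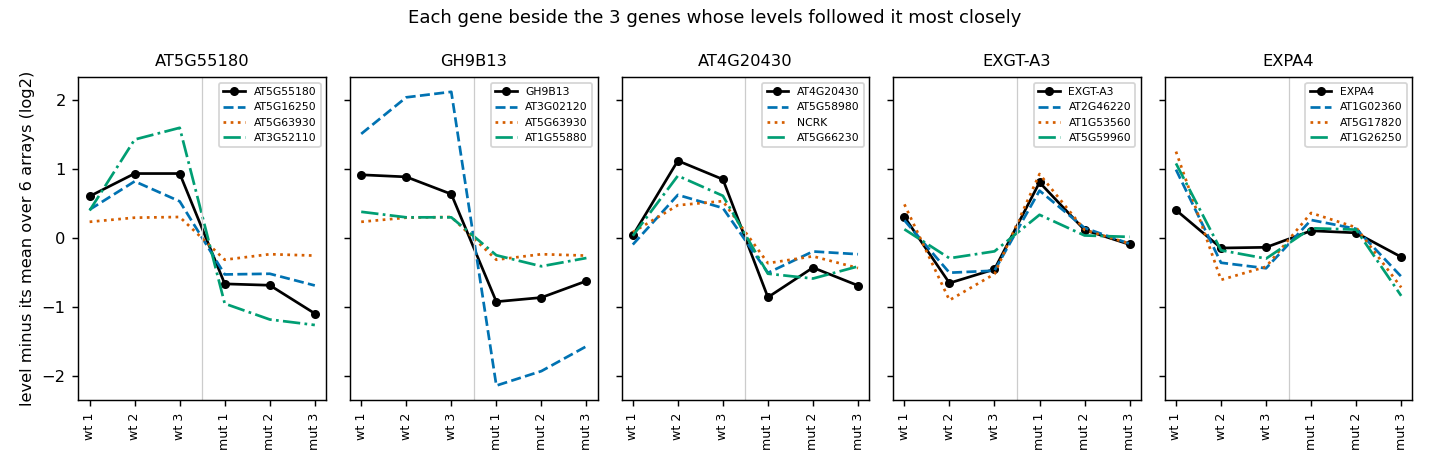
Level minus its mean over the 6 arrays (log2) of each gene and of the 3 genes with the highest Pearson's r to it, for wild type (wt) and mutant (mut) in sets 1 to 3. The genes nearest to AT5G55180, GH9B13 and AT4G20430 step down from wild type to mutant, and those nearest to EXPA4 are highest in wild type of set 1.

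Whole seedlings hold root and shoot, and in such samples fewer cells of a type and less RNA per cell cannot be told apart. Of 7 shoot marker genes 4 had a named probe set. Their summed linear level, in multiples of the array median, was 270 to 319 in wild type and 315 to 381 in the mutant. Of 7 root marker genes 5 had one, with sums of 60.3 to 102 in wild type and 68.3 to 113 in the mutant. On the log2 scale the root sum was higher in the mutant by 0.16, 0.64 and 0.18 in sets 1 to 3 and the shoot sum by 0.26, 0.22 and 0.31. Of the 8 tested markers 0 passed in limma, and 3 had an unadjusted p under 0.05. The share of all tested probe sets under that unadjusted level was not taken. The root sum is mostly PYK10, whose own linear level reached 93.0, and the dimmer root markers did not all go the same way: AT5G17820 differed by -0.88, 0.76 and -0.30 in sets 1 to 3 and EXPA18 by -0.52, 0.83 and 0.67. The part of tissue shares in the difference of EXGT-A3 was not tested.

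Relatives of these genes were found through lists of wall gene families. In 6 such families 33 other genes were tested, 17 of them lower and 16 higher in the mutant, or 19 and 14 with the division by the array median undone. None passed an adjusted p of 0.05 in limma's paired fit, in which 0.139% of all tested probe sets were called lower and 0.388% higher. At an unadjusted p under 0.05, 1 was lower and 5 were higher. The shares just given do not apply to that count, and its own share over all tested probe sets was not taken. A gene was listed only if its symbol or a synonym carries the family name, so relatives without such a name are missing. Many listed relatives had no named probe set or were too dim to be tested. The families are therefore covered only in part.

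Besides GH9B13, 4 other GH9 endoglucanase genes were tested of 14 with a named probe set, 3 lower and 1 higher, with a median of -0.094, which was 0.056 without set 1 and -0.24 without set 2. Their differences ran from -0.19 to 0.19. GH9B7, the brightest, averaged 2.78 ± 0.2 for wild type and 2.72 ± 0.29 for the mutant (SD, n = 3 each), a difference of -0.056 (SE 0.14). GH9C2 had a difference of -0.13 (SE 0.21), but of -0.67, 0.50 and -0.22 in sets 1 to 3. GH9B8, at -0.19 (SE 0.16), and GH9C1, at 0.19 (SE 0.24), did not pass either. GH9B8 was the only one of the 4 that varied between sets (adjusted p = 0.0106, moderated F-test in limma). Of the 4 genes found for family GH17, the beta-1,3-glucanases, 0 had a named probe set. AT5G55180 carries no family name in the tables used and was set beside no relatives.

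The list held 14 subtilase genes, and AT4G20430 was not among them. Of these, 7 were tested, 3 lower and 4 higher. Their median of 0.078 turned to -0.046 with the division by the array median undone and to -0.096 without set 2. SBT3.3, known for its part in immune priming, had the highest difference, 1.29 (SE 0.24, adjusted p = 0.0628 in limma). It was higher in the mutant in each set, by 0.90, 1.92 and 1.05, from a dim wild-type level of -1.29 ± 0.83 (SD, n = 3). It missed the threshold with all arrays, where 72 of the 13648 tested probe sets were called. It passed without set 1 (1.49, adjusted p = 0.00942), where 1107 were called, and without set 3 (1.41, adjusted p = 0.0114), where 207 were. Fits with a set left out have fewer residual degrees of freedom than the fit with all arrays. SBT3.3 met the filter on mean level only through its mutant arrays, and without that filter 0 listed subtilase genes were called. Its direction was opposite to that of AT4G20430. SBT3.5, which acts on a pectin methylesterase, differed by 0.30 (SE 0.15). S1P, the site-1 protease that cuts membrane-bound transcription factors, and SBTI1.1 differed by -0.19 (SE 0.15) and -0.28 (SE 0.17). The brightest of the listed subtilase genes, SBT1.3 and SBT4.12, differed by -0.16 (SE 0.18) and 0.25 (SE 0.15).

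Beside EXGT-A3, 5 other XTH genes were tested, 4 higher and 1 lower, with a median of 0.41. XTH18 had a difference of 0.68 (SE 0.25) and XTH19 of 0.54 (SE 0.24), and neither passed. Set 2 carried most of the difference of XTH18, which was 0.21, 1.53 and 0.30 in sets 1 to 3. XTH19 differed by -0.17, 1.1 and 0.7, so it was higher in sets 2 and 3 but not in set 1. XTH18 and XTH19 are close relatives in sequence, so cross-hybridisation between their probe sets is possible and their separate values are uncertain. XTH16 was steadier, at 0.50, 0.32 and 0.40 in sets 1 to 3, a fitted difference of 0.41 (SE 0.14, adjusted p = 0.217 in limma). XTH32 and XTH20 differed by 0.15 (SE 0.19) and -0.0093 (SE 0.18). By set, the family median was -0.051, 0.64 and 0.3. Beside it, the control difference given above was 0.44, -1.12 and -0.78 and the root marker sum differed by 0.16, 0.64 and 0.18. With the control signal as a covariate the family median was 0.16, and without set 2 it was 0.26; the part of tissue in it was not tested. Without set 1 XTH18 and XTH19 passed, at 0.91 (adjusted p = 0.0495) and 0.90 (adjusted p = 0.0239). That fit called 1107 of the 13648 tested probe sets, against 72 with all arrays.

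Of the expansin family 8 other genes were tested, 5 lower and 3 higher, with a median of -0.20, which was 0.029 without set 1 and -0.038 without set 2. EXPB3, a beta-expansin gene and one of the brightest of the family, had the lowest difference, -0.60 (SE 0.20, adjusted p = 0.199 in limma). Its values were -1.18, -0.30 and -0.31 in sets 1 to 3, so set 1 carried most of it. With the 3' minus 5' control signal as a covariate EXPB3 passed, at -0.89 (adjusted p = 0.0178). The fit with the covariate has fewer residual degrees of freedom, and it called 194 of the 13648 tested probe sets, against 72 without it. EXPA15, also bright, differed by -0.19 (SE 0.14). EXLB1 differed by -0.35 (SE 0.22) and EXPA20 by -0.35 (SE 0.27). The highest differences were those of EXLA1, 0.37 (SE 0.22), and EXPA18, a root hair expansin gene that also stood among the root markers, 0.33 (SE 0.26).

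Genes that act on pectin and that make wall glucans were set beside them. All 3 listed pectin methylesterase genes that were tested had a fitted difference above 0, with a median of 0.32, and 0 passed. In set 1 all 3 were lower in the mutant, and by set the median was -0.046, 1.27 and 0.3. The median was 0.78 without set 1, 0.14 without set 2 and 0.082 with the control signal as a covariate. ATPMEPCRB differed by 0.61 (SE 0.25), with -0.046, 1.41 and 0.48 in sets 1 to 3, and PMEPCRF by 0.20 (SE 0.15). PME61 differed by 0.32 (SE 0.32). Without set 1 ATPMEPCRB passed (0.94, adjusted p = 0.0177), in the fit that called 1107 of the 13648 tested probe sets. The cellulose synthase superfamily had 6 tested genes, and 5 of these lay below 0 and 1 above, at a median of -0.23. The lower ones were ATCSLC08, CSLC6, CSLC5 and CSLC04, of the group that makes the xyloglucan backbone, and CSLD2. ATCSLC08 differed by -0.32 (SE 0.17) and CSLD2 by -0.29 (SE 0.16). CSLC5 and the brighter CSLC04 differed by -0.26 (SE 0.15) and -0.12 (SE 0.16). CSLA03, of the group that makes glucomannan, differed by 0.65 (SE 0.22). None of the 6 passed.

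**Figure D4:**
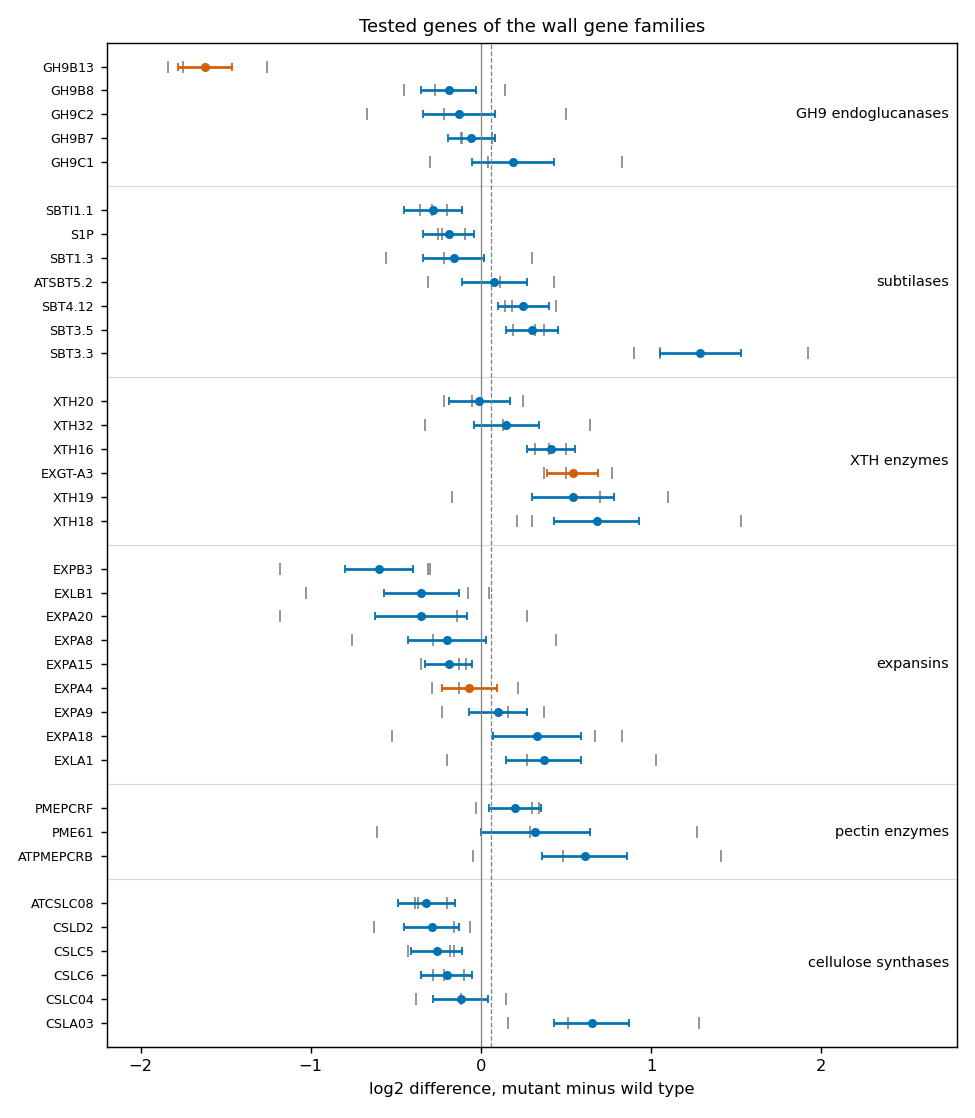
Fitted log2 difference, mutant minus wild type, of each tested gene of the wall gene families, with its SE. The genes GH9B13, EXGT-A3 and EXPA4 are orange and their relatives blue; grey ticks are the differences in the 3 sets, and the dashed line is the median of all tested probe sets, 0.058. GH9B13 lies at -1.62, away from the other GH9 genes, which lie between -0.19 and 0.19.

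The nearest genes on the chromosome were also looked up, an addition made after the values above were seen. Of the 20 protein-coding genes within 2 positions of the 5 genes, 8 had a named probe set and 4 were tested. All 4 lay beside EXGT-A3 or EXPA4, and 0 passed in limma, either adjusted or at an unadjusted p under 0.05. AT4G02300, next to GH9B13, and AT4G20420, next to AT4G20430, were below the filter on dim probe sets. Their levels of -3.91 and -2.42 in wild type are too dim to read a difference from.

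Over the alternatives run, AT5G55180 stayed between -1.82 and -1.44, GH9B13 between -1.80 and -1.51 and AT4G20430 between -1.55 and -1.11. EXGT-A3 was lowest with quantile normalization, at 0.37, and was 0.42 with the division by the array median undone. EXPA4 ranged from -0.21 to 0.046, and was above 0 only without set 1.

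**Figure D5:**
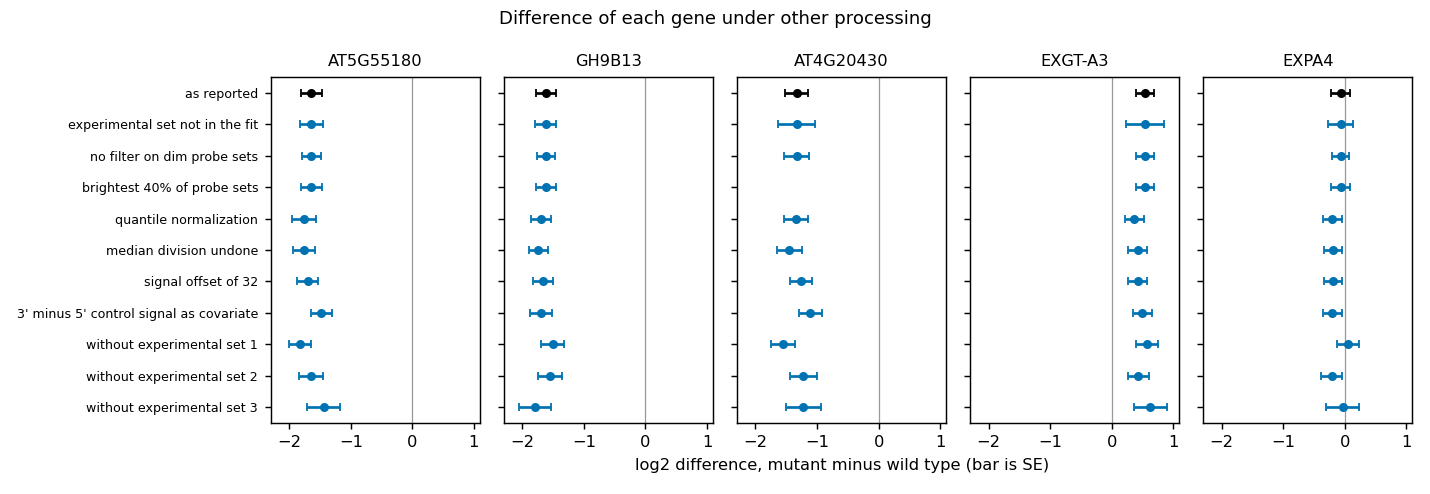
Fitted log2 difference, mutant minus wild type, of each gene as reported (black) and under 10 alternatives (blue), with its SE. AT4G20430 is not among the brightest 40% of probe sets and has 9 alternatives. The 3 lower genes stay below -1, EXGT-A3 stays between 0.37 and 0.63, and EXPA4 stays near 0.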

How the data were processed

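Per the submitters' processing notes, signals of the Affymetrix arrays were summarised with MAS5 (version: not given in the sources used here). What was deposited are log2 signals relative to the array median: each column had a median of 0, a step named in no label. Taking the smallest step as 0.1 signal unit, trimmed mean signals were 500.04 to 500.05. A single value, a stand-in for a signal of 0 in wild-type replicate 1, was set to the smallest step.

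Of 22810 probe sets 64 controls were left out. Gene names came from the platform annotation, updated by gene identifier through RefSeq (TAIR10.1); 13436 of the 13513 probe sets with 1 gene matched. The brightest 60% by mean level, 13648, entered lmFit and eBayes (with trend) of limma 3.58.1, run in R 4.3.3, with the experimental set as a block, Benjamini-Hochberg adjustment and a threshold of 0.05. The fit had 2 residual and 6.79 prior degrees of freedom. Fits with a set left out or with the covariate had fewer residual ones, so their p values lean more on the prior. A run on simulated data with independent noise checked only that the main fit finds large known changes. It does not show how the fit performs on these arrays. The labels name the shared set. Deviations from the genotype means correlated by 0.67, 0.28 and 0.62 in sets 1 to 3. Across sets the correlations ran from -0.61 to 0.37. The highest of these, between wild type of set 2 and the mutant of set 3, exceeded the value within set 2.

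The genes, families and markers were chosen with earlier results of these data known. Families were matched by RefSeq symbol or synonym; AT5G55180 and AT4G20430 carry no family name there and stood in no list. Inhibitors, and genes whose synonyms only resemble a family name, were left out. Named are the 5 genes and, in each family, the genes that passed, the 2 lowest and 2 highest differences and the 2 brightest; the 3 genes most like each of the 5; and, as additions after their values were seen, the chromosome neighbours and further members of small families. Alternatives were the block, the filter, the normalization, an offset of 32 before the log, the control signal as a covariate, and leaving out each set. The number of arrays limits the precision.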

Additional observations from a re-analysis of the deposited data

How the results depend on the processing

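The number of tested probe sets called, 19 lower and 53 higher (72 in all), depended on the fit, in part through fewer or more probe sets tested. With no replicate block it was 1 lower and 0 higher (1 in all), so the pairing by set decides the count; the paired and unpaired differences of the 5 genes are equal by construction. It was 7 lower and 7 higher (14) without a filter on dim probe sets, 11 and 32 (43) among the brightest 40%, and 52 and 142 (194) with the 3' minus 5' control signal as a covariate. With the median division undone 33 were lower and 41 higher, a split of 44.6% lower in place of 26.4%, and with an offset of 32 33 were lower and 40 higher. Leaving out a set gave 25 to 189 lower, 82 to 918 higher and 107 to 1107 in all, the highest without set 1. The set effect was called for 1175 probe sets, for 685 without a filter, for 346 with the covariate and for 74 to 3311 with a set left out. The differences of AT5G55180, GH9B13, AT4G20430 and EXGT-A3 kept their direction under every alternative run, and each of the 5 genes moved by less than 1 SD of its set differences. Part of this is fixed by construction, as the block and the filters leave a difference unchanged. Leaving out a set cannot turn a gene with the same sign in every set, nor move any mean by 1 SD. Only the normalization, the offset and the covariate could have done so.

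The GH9 median, -0.094, lay between -0.24 and 0.056 with a set left out, and was -0.23 with the covariate, -0.21 with quantile normalization, -0.22 with the median division undone and -0.21 with the offset. The XTH median, 0.41, was 0.26 to 0.41 with a set left out, 0.16 with the covariate and 0.26 with the offset. The pectin median, 0.32, was 0.14 to 0.78 with a set left out, 0.082 with the covariate, 0.19 with the median division undone and 0.18 with the offset. The subtilase median, 0.078, was -0.16 without a filter, 0.25 among the brightest 40%, -0.046 with the median division undone, -0.041 with the offset, and -0.096 to 0.27 with a set left out, so it has no settled sign. The expansin median, -0.20, was -0.32 with the median division undone and -0.19 to 0.029 with a set left out. The median of the cellulose synthase superfamily was -0.26 with quantile normalization, -0.35 with the median division undone and -0.32 with the offset. With a set left out, 0 to 1 subtilase genes, 0 to 2 XTH genes and 0 to 1 pectin genes passed, and 1 expansin gene passed with the covariate. Those fits called more of all tested probe sets too, 107 to 1107 with a set left out and 194 with the covariate, against 72. For all these changes the cause was not tested. Averaging several probe sets of a gene was not run, as no listed gene had more than 1.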
